A study of Mus musculus with 13 samples.

Results

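The genes described here encode integrin subunits, laminin chains and other components of the basement membrane and the hemidesmosome in mouse basal cell carcinoma (BCC). They were chosen by symbol as a list of 45 genes, and all 45 have a row with values among the 21100 genes of the table. Expression was measured by sequencing poly(A) RNA of 13 tumors, and the values are expected counts of reads per gene. The 9 GEM-BCC tumors (genetically engineered mouse BCC) grew in the skin of 7 female mice of the strain Ptch1+/- K14-CreER2 p53fl/fl (K14-CreERT2 in the study's methods) after 3 injections of 300 µg tamoxifen and X-ray irradiation with 4 Gy. Of the GEM-BCC mice, 2 gave more than 1 sequenced tumor, GEM2 and GEM3 in one case and GEM7 and GEM8 in the other. The 4 Tp-BCC tumors (transplantable BCC) grew under the skin of the right flank of 4 female Ptch1+/-p53fl/fl mice, each given 2000000 tumor cells. Both models therefore carry the Ptch1+/- and p53fl/fl alleles in the host. In GEM-BCC mice the Cre recombinase is driven by the keratin 14 promoter, so that recombination is directed to basal keratinocytes, and the strain of the Tp-BCC hosts lists no Cre. All Tp-BCC tumors descend from a single GEM-BCC tumor that was passaged in mice, so that they stand for 1 line. GEM-BCC libraries form batch 1 and Tp-BCC libraries batch 2, and therefore model and batch cannot be told apart in any comparison below.

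Integrins are receptors made of an alpha and a beta subunit that bind proteins of the extracellular matrix and connect them to the cytoskeleton. The basement membrane under the epidermis is a sheet built on laminins, each a trimer of an alpha, a beta and a gamma chain, and on type IV collagen, joined by nidogens and by the heparan sulfate proteoglycans perlecan and agrin. Basal keratinocytes hold on to it through hemidesmosomes, in which the integrin of Itga6 and Itgb4 binds the laminin that contains Lama3 and Lamb3 and is tied to keratin filaments by plectin and dystonin. Blood vessels, muscle and nerve have basement membranes of their own, so RNA of these genes can come from tumor cells and from stroma alike. In bulk tumor RNA, fewer cells of a type and less RNA per cell cannot be told apart.

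Depth, as the sum of expected counts, ran from 28075317 to 32629102 for GEM-BCC and was lower for Tp-BCC, at 15388027 to 17494912. The Tp-BCC libraries stood in pairs by base composition. Spearman's rho between a gene's log2 CPM (counts scaled to library size) relative to its mean and the GC content of its transcripts was -0.39 in TP1 and -0.472 in TP3, but 0.593 in TP2 and 0.589 in TP4. In GEM-BCC tumors it was 0.363 in GEM1 and -0.31 to -0.15 in the others. Members that passed the test are therefore also given with this trend removed from every library and with TP1 and TP3 alone or TP2 and TP4 alone. The fits on pairs of tumors were added after the data had been seen. Both models expressed the markers of basal keratinocytes: the GEM-BCC libraries held 163804 to 325226 counts of Krt5 and 9850 to 25845 of Trp63, and the Tp-BCC libraries 62241 to 144935 and 1629 to 7403.

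Of the 45 genes, 44 had enough counts for a test. Lama1, the laminin alpha chain of early embryonic basement membranes, reached at most 5 counts in a GEM-BCC and 2 counts in a Tp-BCC tumor and was not tested. By edgeR's quasi-likelihood test with Benjamini-Hochberg adjustment over all 14390 tested genes, 6 members were higher in Tp-BCC (Itga5, Itga7, Itgb8, Lama4, Nid2 and Ilk) and 4 were lower (Itgb5, Frem2, Fras1 and Fermt1). These 10 of 44 members are 22.7%, against 19.4% of all tested genes, 11.1% higher and 8.35% lower. With an absolute log2 fold change above 2 as well, 1 member was called (Frem2), where 5.57% of all genes were. The tumors of the models did not overlap for 3 members (Itga5, Nid2 and Frem2), as for 9.95% of all genes. The median log2 fold change of the members was 0.11, and that of all tested genes -0.03. The members as a list were thus close to the background in each of these counts, and the differences lay in single genes. The other 34 members had log2 fold changes of -1.11 to 0.95, with a median standard error of 0.33, and 6 of them had an unadjusted p under 0.05.

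**Figure D1:**
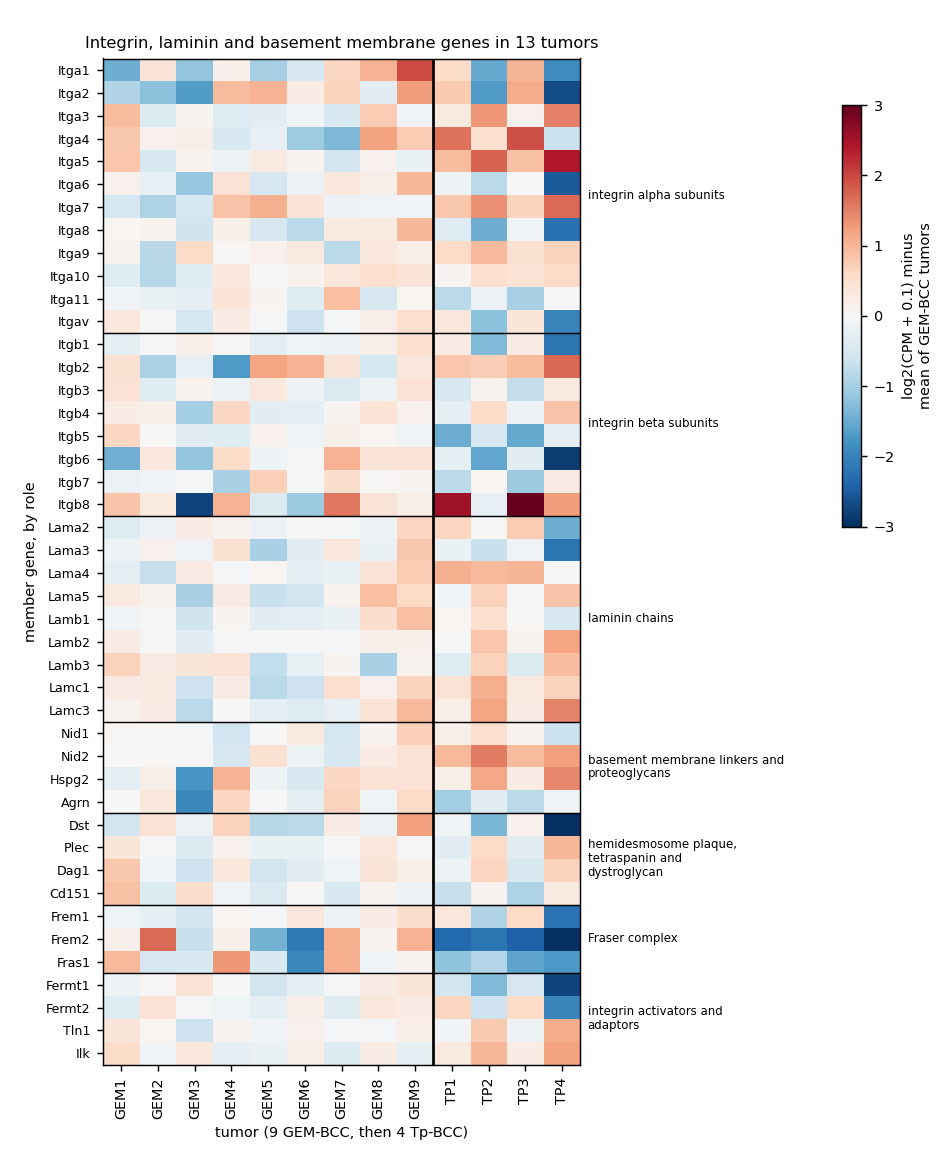
Each cell shows log2(CPM + 0.1) of 1 tested member (rows, by role) in 1 tumor (columns, 9 GEM-BCC then 4 Tp-BCC) minus the mean of the GEM-BCC tumors, with colors ending at -3 and 3. Frem2 and Fras1 are low in all 4 Tp-BCC tumors, while for many genes TP2 and TP4 have the color opposite to TP1 and TP3.

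With the GC trend removed, 6 members were higher (Itga5, Itgb8, Lama4, Lamc1, Nid2 and Ilk) and 5 lower (Itga11, Itgb5, Frem2, Fras1 and Fermt1), 25.0% of the members against 28.6% of all genes (15.2% higher and 13.4% lower). Of the 10 members past the threshold without this correction, 9 also passed it with the correction and Itga7 did not. The median log2 fold change of the members was then -0.06, and that of all genes -0.02. Over 6 fits (no correction, GC trend removed, transcript length trend removed, each pair of Tp-BCC tumors alone, and DESeq2), 14 members had a positive and 11 a negative log2 fold change in every fit. Only Nid2 passed the threshold in all 6. No share over all genes is given for these counts over 6 fits, so they are not read as particular to the members.

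**Figure D2:**
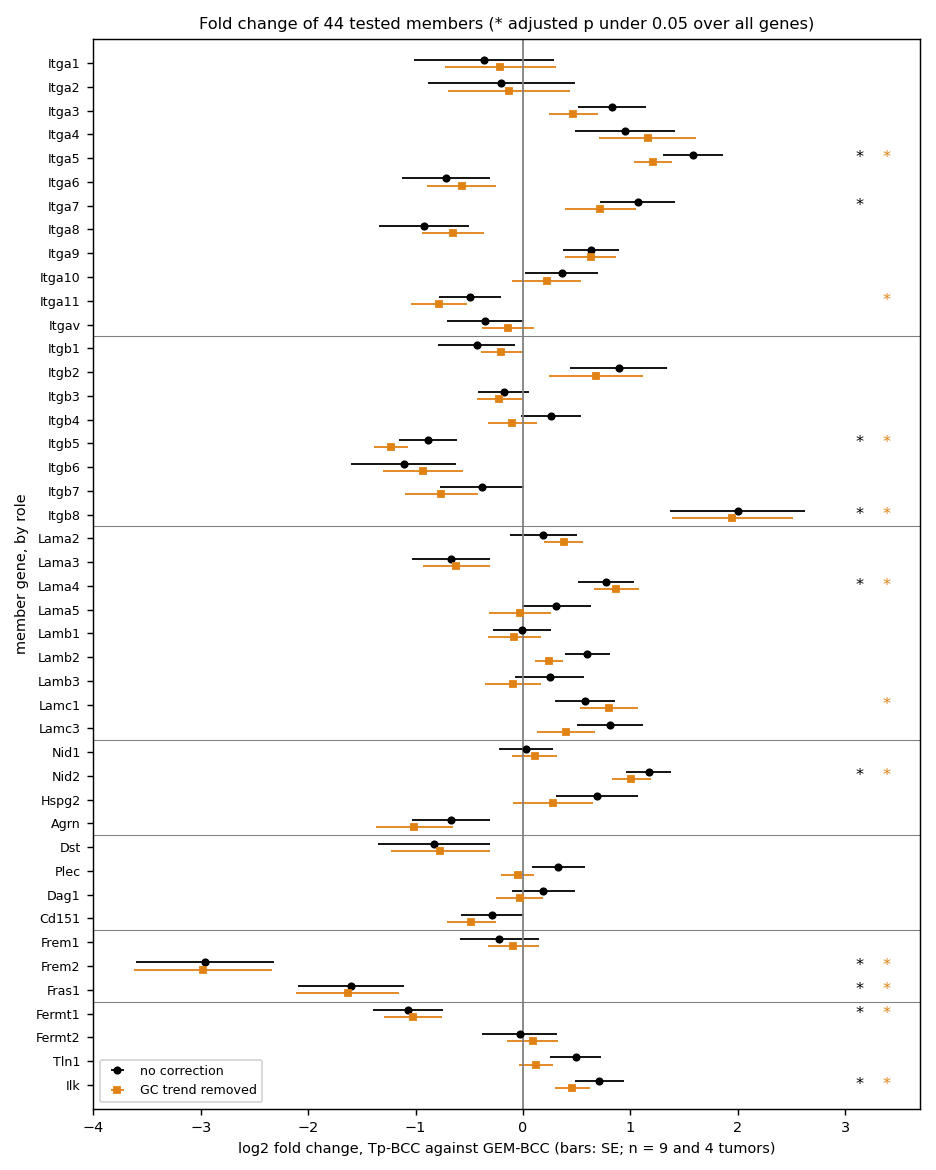
Log2 fold changes of the 44 tested members in Tp-BCC against GEM-BCC tumors with their standard errors, without correction (black) and with the GC trend removed (orange), and with a star at an adjusted p under 0.05. The values run from -2.96 (Frem2) to 2.00 (Itgb8) without correction, and most members lie within 1 of 0.

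Among the 12 integrin alpha subunits, 2 rose in Tp-BCC, none fell and 10 did not pass the test. That is 16.7% passing, against 19.4% of all tested genes. Itga5 encodes the alpha chain of the main fibronectin receptor. It had 47.0 to 124 CPM (median 74.6) in GEM-BCC tumors, and 136, 239, 129 and 368 CPM in TP1 to TP4. Every Tp-BCC tumor was above every GEM-BCC tumor, and the highest GEM-BCC value, in GEM1, came close to the lowest Tp-BCC values. The log2 fold change was 1.58 (SE 0.28, edgeR, adjusted p = 0.00153), and 1.21 (SE 0.18, adjusted p = 3.74e-04) with the GC trend removed. With TP1 and TP3 alone it was 0.86 (adjusted p = 0.0614, edgeR) and with TP2 and TP4 alone 2.06 (adjusted p = 1.63e-04). It passed the threshold without any 1 of the 13 tumors. Itga7 encodes a laminin receptor chain known from skeletal and smooth muscle. Its values were 4.94 to 19.9 CPM (median 8.72) in GEM-BCC, and 16.7, 24.8, 15.1 and 30.8 CPM in TP1 to TP4, so that TP2 and TP4 lay above all GEM-BCC tumors and TP1 and TP3 among the highest of them. Its log2 fold change was 1.07 (SE 0.35, edgeR, adjusted p = 0.0423). It was 0.72 (adjusted p = 0.117, edgeR) with the GC trend removed, and the adjusted p reached up to 0.192 without any 1 of GEM1, GEM2, GEM3, GEM6, GEM7, GEM8, GEM9, TP2 or TP4. It was 0.60 with TP1 and TP3 alone (adjusted p = 0.416, edgeR), with TP2 and TP4 alone 1.42 (adjusted p = 0.0142), and with counts summed per mouse 0.95 (adjusted p = 0.0823). Skeletal muscle markers, 12 genes, summed to 13.7 CPM in TP2 and 156 CPM in TP4, against 3.89 and 4.79 CPM in TP1 and TP3 and 2.47 to 8.38 CPM in GEM-BCC. Their part in the Itga7 values was not tested.

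The best expressed alpha subunits in GEM-BCC were Itga3 and Itga6, which pair with Itgb1, and Itga6 also with Itgb4, in laminin receptors of basal keratinocytes. Itga3 had 165 to 441 CPM (median 211) in GEM-BCC and 277, 559, 250 and 647 CPM in TP1 to TP4, with a log2 fold change of 0.83 (SE 0.32, edgeR, adjusted p = 0.0771). Itga6 had 73.4 to 326 CPM (median 176) in GEM-BCC and 147, 91.9, 160 and 28.3 CPM in TP1 to TP4, with a log2 fold change of -0.72 (SE 0.41, edgeR, adjusted p = 0.232). For Itga3 the 2 Tp-BCC tumors TP2 and TP4 were above all GEM-BCC tumors, and for Itga6 TP4 was below all of them. With TP2 and TP4 alone both passed the threshold, at a log2 fold change of 1.31 for Itga3 (adjusted p = 0.00716, edgeR) and -1.54 for Itga6 (adjusted p = 0.0292), while TP1 and TP3 alone gave 0.12 and -0.19. The collagen receptor chains Itga1, Itga2 and Itga10 had log2 fold changes of -0.36, -0.20 and 0.36. Itga11, the fourth collagen receptor chain and one of fibroblasts, had -0.49 (adjusted p = 0.239, edgeR) and -0.78 (adjusted p = 0.0354) with the GC trend removed. Itga4 and Itga9, which can bind fibronectin or tenascin, had 0.95 (adjusted p = 0.167, edgeR) and 0.63 (adjusted p = 0.0988). Itga8 and Itgav, whose integrins bind matrix proteins with an arginine-glycine-aspartate motif, had -0.92 (adjusted p = 0.129, edgeR) and -0.35 (adjusted p = 0.521).

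Of the 8 integrin beta subunits, 1 rose (Itgb8), 1 fell (Itgb5) and 6 did not pass the test. That is 25.0% passing, against 19.4% of all tested genes. Itgb5 pairs with Itgav in a vitronectin receptor. It had 260 to 515 CPM (median 329) in GEM-BCC, and 118, 235, 114 and 273 CPM in TP1 to TP4. TP1, TP2 and TP3 were below every GEM-BCC tumor, and TP4 was just above the lowest of them. Tp-BCC differed from GEM-BCC by a log2 fold change of -0.88 (SE 0.27, edgeR, adjusted p = 0.0332), and -1.23 (SE 0.16, adjusted p = 1.21e-04) with the GC trend removed. With the length trend removed it was -0.67 (adjusted p = 0.122, edgeR), and the adjusted p reached up to 0.0925 without any 1 of GEM7, TP1 or TP3. TP1 and TP3 alone gave -1.55 (adjusted p = 0.00329, edgeR) and TP2 and TP4 alone -0.42 (adjusted p = 0.209), so that the threshold was passed with the first pair and not with the second. With counts summed per mouse it was -0.88 (adjusted p = 0.051, edgeR). Itgb8 pairs with Itgav in an integrin that activates latent TGF-beta. It had 0.474 to 11.7 CPM (median 4.69) in GEM-BCC and 23.0, 3.21, 45.7 and 9.35 CPM in TP1 to TP4. TP1 and TP3 were above all GEM-BCC tumors, while TP2 and TP4 lay within their range. The test gave a log2 fold change of 2.00 (SE 0.63, edgeR, adjusted p = 0.0382), just short of the fold threshold, and 1.95 (adjusted p = 0.0191) with the GC trend removed. It was 2.75 (adjusted p = 0.0179, edgeR) with TP1 and TP3 alone and 0.30 (adjusted p = 0.767) with TP2 and TP4 alone. The adjusted p reached up to 0.182 without any 1 of GEM2, GEM5, GEM6, GEM8, GEM9, TP1 or TP3.

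Itgb1, the common partner of most alpha subunits, was the beta subunit with the highest mean level per length in both models. In TP2 and TP4 it was below Itgb5. It had 456 to 761 CPM (median 538) in GEM-BCC and 652, 218, 654 and 119 CPM in TP1 to TP4. The GEM-BCC tumors thus differed little among themselves, whereas TP1 and TP3 lay within their range and TP2 and TP4 far below it. The log2 fold change was -0.43 (SE 0.36, edgeR, adjusted p = 0.409), and -0.20 (adjusted p = 0.427) with the GC trend removed. Itgb4, the hemidesmosomal partner of Itga6, had 70.6 to 222 CPM (median 156) in GEM-BCC and 119, 214, 127 and 261 CPM in TP1 to TP4, with a log2 fold change of 0.26 (SE 0.28, edgeR, adjusted p = 0.538). Itgb6, an epithelial partner of Itgav, had the lowest log2 fold change of the members that did not pass, -1.11 (SE 0.49, edgeR, adjusted p = 0.119). Its values were 17.8 to 99.4 CPM in GEM-BCC and 40.1, 16.3, 37.9 and 6.64 CPM in TP1 to TP4. Itgb3, the partner of Itgav on vessels and of platelet integrin, had -0.18, and the leukocyte chains Itgb2 and Itgb7 had 0.89 (adjusted p = 0.175, edgeR) and -0.38 (adjusted p = 0.513).

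Of the 9 tested laminin chains, 1 rose (Lama4), none fell and 8 did not pass the test. That is 11.1% passing, against 19.4% of all tested genes, and the median log2 fold change of the chains was 0.31. Lama4 is the alpha chain of laminins of blood vessels, muscle and nerve. It had 16.3 to 44.6 CPM (median 26.0) in GEM-BCC, and 55.7, 51.8, 53.6 and 26.6 CPM in TP1 to TP4. TP1, TP2 and TP3 were above all GEM-BCC tumors and TP4 was close to the GEM-BCC median. Its log2 fold change was 0.77 (SE 0.26, edgeR, adjusted p = 0.0491), and 0.87 (SE 0.21, adjusted p = 0.00824) with the GC trend removed. The adjusted p reached up to 0.147 without any 1 of GEM1 to GEM7, TP1, TP2 or TP3, and was 0.055 with DESeq2 size factors and 0.057 with counts summed per mouse (edgeR). The log2 fold change of Lama4 was 0.99 (adjusted p = 0.0432, edgeR) with TP1 and TP3 alone and with TP2 and TP4 alone 0.51 (adjusted p = 0.220). The best expressed chains were Lama5 and Lamc1, which occur together in the most widespread laminins of adult epithelia and vessels. Lama5 had 411 to 1510 CPM (median 870) in GEM-BCC and 766, 1313, 791 and 1473 CPM in TP1 to TP4, with a log2 fold change of 0.31 (SE 0.32, edgeR, adjusted p = 0.511). Lamc1 had 401 to 1113 CPM (median 818) in GEM-BCC and 949, 1507, 855 and 1142 CPM in TP1 to TP4. Its log2 fold change was 0.58 (SE 0.28, edgeR, adjusted p = 0.147), and it passed the threshold with the GC trend removed, at 0.80 (SE 0.27, adjusted p = 0.0369). The epidermal chains Lama3 and Lamb3 had log2 fold changes of -0.67 (adjusted p = 0.197, edgeR) and 0.25 (adjusted p = 0.601). Lama3 was 209, 151, 223 and 52.0 CPM in TP1 to TP4, and Lamb3 267, 561, 260 and 662 CPM, so that these partner chains were ordered in opposite ways within the Tp-BCC tumors. Lamb2 had 0.60 (adjusted p = 0.0588, edgeR), Lamc3 0.81 (adjusted p = 0.0759), Lama2 0.19 and Lamb1 -0.01. With TP2 and TP4 alone Lamb2 was 1.01 (adjusted p = 9.59e-04, edgeR) and Lamc3 1.27 (adjusted p = 0.00755), and with TP1 and TP3 alone 0.03 and 0.14.

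Among the 4 linkers and proteoglycans, only Nid2 passed the test, where 19.4% of all tested genes passed. It encodes nidogen-2, which joins laminin to type IV collagen. It had 34.7 to 67.6 CPM (median 49.4) in GEM-BCC, and 96.3, 145, 95.5 and 116 CPM in TP1 to TP4. All Tp-BCC tumors were above all GEM-BCC tumors, and the ranges were well apart. Tp-BCC differed from GEM-BCC by a log2 fold change of 1.17 (SE 0.21, edgeR, adjusted p = 0.00131), and 1.01 (SE 0.18, adjusted p = 0.00132) with the GC trend removed. TP1 and TP3 alone gave 0.93 (adjusted p = 0.0236, edgeR) and TP2 and TP4 alone 1.38 (adjusted p = 6.83e-04), and no single tumor decided the call. Its paralog Nid1 had 389 to 945 CPM (median 587) in GEM-BCC and 647, 799, 617 and 370 CPM in TP1 to TP4, with a log2 fold change of 0.03 (SE 0.25, edgeR, adjusted p = 0.938). Agrn, which encodes agrin, had 139 to 857 CPM (median 539) in GEM-BCC and 260, 428, 303 and 491 CPM in TP1 to TP4. The test gave a log2 fold change of -0.67 (SE 0.36, edgeR, adjusted p = 0.202), and -0.85 (adjusted p = 0.0249) without GEM3. Hspg2, which encodes perlecan, had 123 to 857 CPM in GEM-BCC and 472, 928, 490 and 1141 CPM in TP1 to TP4, with a log2 fold change of 0.69 (SE 0.38, edgeR, adjusted p = 0.211). For both proteoglycans GEM3 was the lowest tumor.

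None of the 4 genes of the hemidesmosome plaque and its associated membrane proteins passed the test. Plec (plectin) had 373 to 643 CPM (median 487) in GEM-BCC and 401, 735, 400 and 994 CPM in TP1 to TP4, with a log2 fold change of 0.33 (SE 0.25, edgeR, adjusted p = 0.360). Dag1 encodes dystroglycan, a laminin receptor outside the integrin family. It had 338 to 908 CPM (median 490) in GEM-BCC and 462, 808, 372 and 840 CPM in TP1 to TP4, at a log2 fold change of 0.19 (SE 0.29, edgeR, adjusted p = 0.664). Dst (dystonin) had 382, 157, 449 and 41.3 CPM in TP1 to TP4, against 226 to 959 CPM in GEM-BCC, and a log2 fold change of -0.83 (SE 0.52, edgeR, adjusted p = 0.271). The tetraspanin Cd151, a partner of laminin-binding integrins, had -0.29 (SE 0.29, edgeR, adjusted p = 0.515).

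The Fraser complex gave the largest decrease. Frem1, Frem2 and Fras1 encode large proteins that assemble beneath the epidermal basement membrane, mainly during development, and whose loss leads to embryonic skin blistering. Of the 3 genes, 2 fell in Tp-BCC, where 8.35% of all tested genes fell, and the median log2 fold change of the 3 was -1.60. Frem2 had 27.6 to 403 CPM (median 136) in GEM-BCC, and 24.5, 26.7, 23.0 and 9.85 CPM in TP1 to TP4. No Tp-BCC tumor reached the lowest GEM-BCC value, although GEM6 with 27.6 CPM and GEM5 with 46.4 CPM were close. GEM2 and GEM3 of 1 mouse had 403 and 77.2 CPM. The log2 fold change was -2.96 (SE 0.64, edgeR, adjusted p = 0.00536), and -2.98 (SE 0.64, adjusted p = 0.00385) with the GC trend removed. It was -2.78 (adjusted p = 0.0631, edgeR) with TP1 and TP3 alone, -3.16 (adjusted p = 0.0169) with TP2 and TP4 alone, and -3.11 to -2.67 without 1 tumor. Fras1 had 14.7 to 140 CPM (median 52.0) in GEM-BCC, and 24.7, 30.9, 19.0 and 17.1 CPM in TP1 to TP4. All Tp-BCC tumors were below the GEM-BCC median, and GEM6 was below all of them. Its log2 fold change was -1.60 (SE 0.49, edgeR, adjusted p = 0.0333), -1.63 (SE 0.48, adjusted p = 0.0200) with the GC trend removed and -0.79 (adjusted p = 0.215) with the length trend removed. The adjusted p reached up to 0.0877 without any 1 of GEM4, GEM7 or the 4 Tp-BCC tumors. Neither pair passed alone, at -1.67 (adjusted p = 0.143, edgeR) with TP1 and TP3 and -1.53 (adjusted p = 0.0915) with TP2 and TP4. Frem1, in contrast, had 47.1 to 101 CPM in GEM-BCC and 87.4, 37.2, 105 and 15 CPM in TP1 to TP4, with a log2 fold change of -0.22 (SE 0.37, edgeR, adjusted p = 0.703).

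Among the 4 activators and adaptors, 1 rose (Ilk), 1 fell (Fermt1) and 2 did not pass, where 19.4% of all tested genes passed. Fermt1 encodes kindlin-1, the kindlin of keratinocytes, which activates integrins from the inside and is the gene lost in Kindler syndrome. It had 86.3 to 167 CPM (median 127) in GEM-BCC, and 86.7, 50.7, 89.3 and 18.8 CPM in TP1 to TP4. TP1 and TP3 were at the lower end of GEM-BCC and TP2 and TP4 below it. Tp-BCC differed from GEM-BCC by a log2 fold change of -1.07 (SE 0.33, edgeR, adjusted p = 0.0340), and -1.02 (SE 0.27, adjusted p = 0.0130) with the GC trend removed. The adjusted p reached up to 0.101 without GEM9 or TP2, and was 0.062 with counts summed per mouse (edgeR). Fermt1 was at -0.55 (adjusted p = 0.156, edgeR) with TP1 and TP3 alone and with TP2 and TP4 alone at -1.89 (adjusted p = 0.00139). Ilk (integrin-linked kinase) had 124 to 240 CPM (median 156) in GEM-BCC, and 202, 329, 190 and 380 CPM in TP1 to TP4. Only TP2 and TP4 were above all GEM-BCC tumors. The test gave a log2 fold change of 0.71 (SE 0.23, edgeR, adjusted p = 0.0432), and 0.46 (SE 0.16, adjusted p = 0.0390) with the GC trend removed. The adjusted p reached up to 0.191 without any 1 of GEM2, GEM4 to GEM9, TP2 or TP4, and was 0.0547 with counts summed per mouse (edgeR). Ilk was at 0.22 (adjusted p = 0.580, edgeR) with TP1 and TP3 alone and with TP2 and TP4 alone at 1.08 (adjusted p = 0.00316). Tln1 (talin-1), which links integrin tails to actin, had 172 to 343 CPM (median 276) in GEM-BCC and 245, 456, 239 and 572 CPM in TP1 to TP4, with a log2 fold change of 0.49 (SE 0.24, edgeR, adjusted p = 0.162). Fermt2 (kindlin-2), the more widely expressed kindlin, had 147, 61.6, 143 and 23.9 CPM in TP1 to TP4 and a log2 fold change of -0.03 (SE 0.35, edgeR, adjusted p = 0.964).

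**Figure D3:**
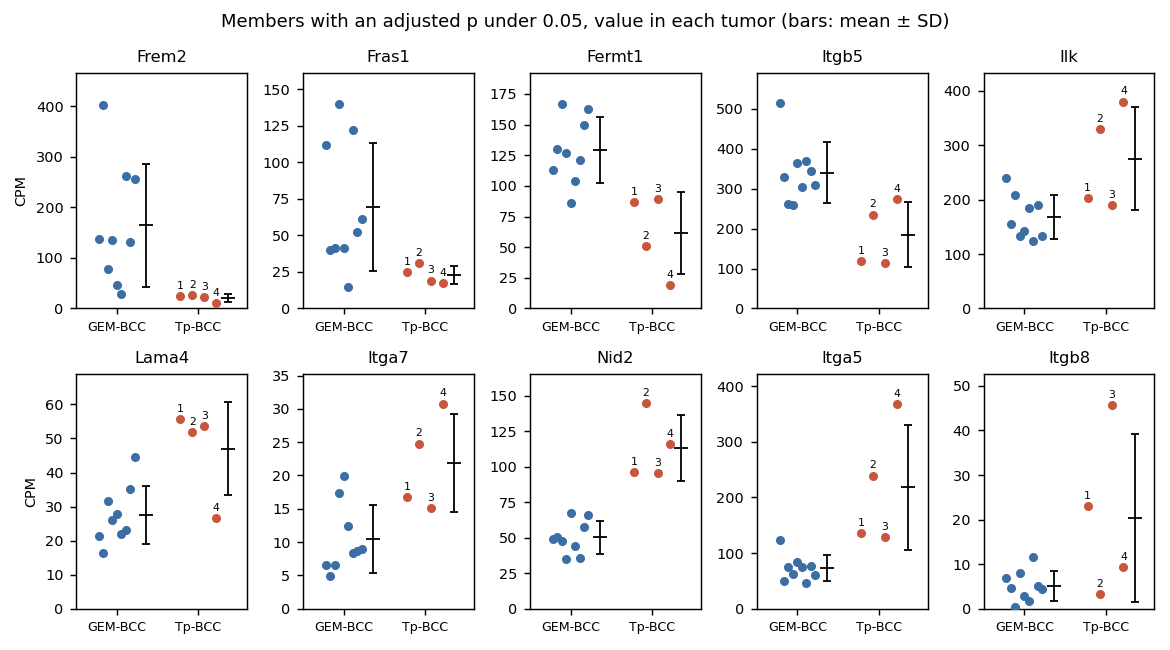
CPM in each tumor of the 10 members with an adjusted p under 0.05, each panel with the 9 GEM-BCC tumors (blue) and the 4 Tp-BCC tumors (red, numbered TP1 to TP4) and with bars for mean ± SD. The models do not overlap for Frem2, Nid2 and Itga5, and both TP2 and TP4 lie on one side of TP1 and TP3 in Fermt1, Itgb5, Ilk, Lama4, Itga7, Nid2, Itga5 and Itgb8.

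The promoters of 4 members that passed the test are shown to let their sequence be compared. For Frem2 and Itga5 the models did not overlap, and Fermt1 and Itgb5 are 2 of the genes that fell. The promoters of Nid2, whose models did not overlap either, and of Fras1, which also fell, are not shown. Each promoter shown is the 250 bases before the start of the gene in RefSeq (GRCm38.p6). It is written 5′ to 3′ on the strand of the gene, with the searched motifs in capitals. Frem2 lies at chr3:53657356-53657605 (minus strand), Fermt1 at chr2:132946037-132946286 (minus), Itgb5 at chr16:33829415-33829664 (plus) and Itga5 at chr15:103366792-103367041 (minus).
Frem2: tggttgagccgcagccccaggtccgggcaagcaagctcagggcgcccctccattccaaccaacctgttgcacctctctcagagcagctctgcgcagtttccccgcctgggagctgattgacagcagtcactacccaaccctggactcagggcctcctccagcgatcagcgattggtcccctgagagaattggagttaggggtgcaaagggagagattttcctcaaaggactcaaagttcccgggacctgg
Fermt1: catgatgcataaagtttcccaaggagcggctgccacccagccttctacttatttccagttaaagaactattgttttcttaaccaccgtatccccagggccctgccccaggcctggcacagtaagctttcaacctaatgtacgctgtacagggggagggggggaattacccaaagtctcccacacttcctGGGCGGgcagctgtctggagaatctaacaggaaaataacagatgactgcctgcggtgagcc
Itgb5: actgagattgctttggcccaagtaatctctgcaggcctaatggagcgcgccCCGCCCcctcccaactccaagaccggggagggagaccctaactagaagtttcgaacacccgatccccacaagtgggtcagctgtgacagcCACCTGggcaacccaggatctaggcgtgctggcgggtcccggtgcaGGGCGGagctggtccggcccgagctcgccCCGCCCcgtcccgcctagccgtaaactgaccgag
Itga5: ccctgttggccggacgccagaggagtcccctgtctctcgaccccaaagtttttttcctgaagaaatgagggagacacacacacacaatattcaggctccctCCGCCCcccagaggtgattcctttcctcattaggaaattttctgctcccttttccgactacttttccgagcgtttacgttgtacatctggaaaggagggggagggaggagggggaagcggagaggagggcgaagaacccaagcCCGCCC
The motifs, read on both strands, were the GC box GGGCGG, the E-box CACCTG, the AP-1 site TGANTCA and the Gli site GACCACCCA. No motif overlapped another in these windows. Frem2 had none of the 4, Fermt1 had 1 GC box, Itgb5 had 3 GC boxes and 1 E-box, and Itga5 had 2 GC boxes. The 32 members with an entry have 41 windows, since a gene can have several. A GC box occurred in 33% of all 32536 promoter windows of this length and in 19 of the 41 member windows, an E-box in 17.3% and in 11, an AP-1 site in 6.73% and in none, and the Gli site in 0.218% and in none.

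Levels per kilobase (kb) were taken over the longest protein-coding transcript of each gene. Itgb1 had the highest mean of the integrin subunits in both models. Its mean was 145 ± 25.7 CPM per kb (SD, n = 9) in GEM-BCC and 108 ± 74.0 CPM per kb (n = 4) in Tp-BCC. In Tp-BCC it did not differ from Itga3 beyond the spread. In TP2 and TP4 Itgb1 (218 and 119 CPM, 3.81 kb) was below Itga3 (559 and 647 CPM, 4.86 kb). In these 2 tumors Itgb1 was also below Itgb5 (235 and 273 CPM, 3.28 kb). Itgb5 followed in GEM-BCC with 104 ± 23.4 CPM per kb, and then Itga3 as the highest alpha subunit with 50 ± 20.8 CPM per kb. Itga6 at 40.7 ± 16.9 CPM per kb did not differ from Itga3 beyond the spread. By mean, the order of the alpha subunits in Tp-BCC was Itga3 at 89.1 ± 41.0, Itga5 at 49.7 ± 25.5 and Itga6 at 24.8 ± 14 CPM per kb. In GEM-BCC Itga5 was at 16.6 ± 5.21 CPM per kb, below Itga6. The Tp-BCC values of Itga5 and Itga6 overlapped, at 29.5 to 83.9 and 6.56 to 37.2 CPM per kb. Their lengths were alike (4.38 and 4.31 kb). In TP1 and TP3 Itga5 (136 and 129 CPM) was below Itga6 (147 and 160 CPM). Only in TP2 and TP4 was Itga5 above, at 239 and 368 CPM against 91.9 and 28.3 CPM. The order thus parted with the 2 pairs of libraries that differ by GC content. Itga2, Itga10, Itgb7 and Itgb8 were all below 1 CPM per kb in GEM-BCC. Among laminin chains, Lamc1 was the highest in both models, at 97.6 ± 32.9 CPM per kb in GEM-BCC and 146 ± 37.8 in Tp-BCC, followed by Lama5 at 76.8 ± 31.1 and 95.3 ± 31.7 and Lamb3 at 75.4 ± 25.4 and 89.9 ± 42.1 CPM per kb. These neighbors in the order did not differ beyond their spread. Lama4 was the lowest tested chain, at 4.55 ± 1.41 and 7.76 ± 2.26 CPM per kb. Among the other members, Cd151 was the highest in GEM-BCC (132 ± 47.1 CPM per kb) and Ilk in Tp-BCC (153 ± 52.3 CPM per kb). Frem2 went from 13.3 ± 9.81 to 1.70 ± 0.615 CPM per kb, the first of the Fraser genes in GEM-BCC and below Frem1 in Tp-BCC.

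**Figure D4:**
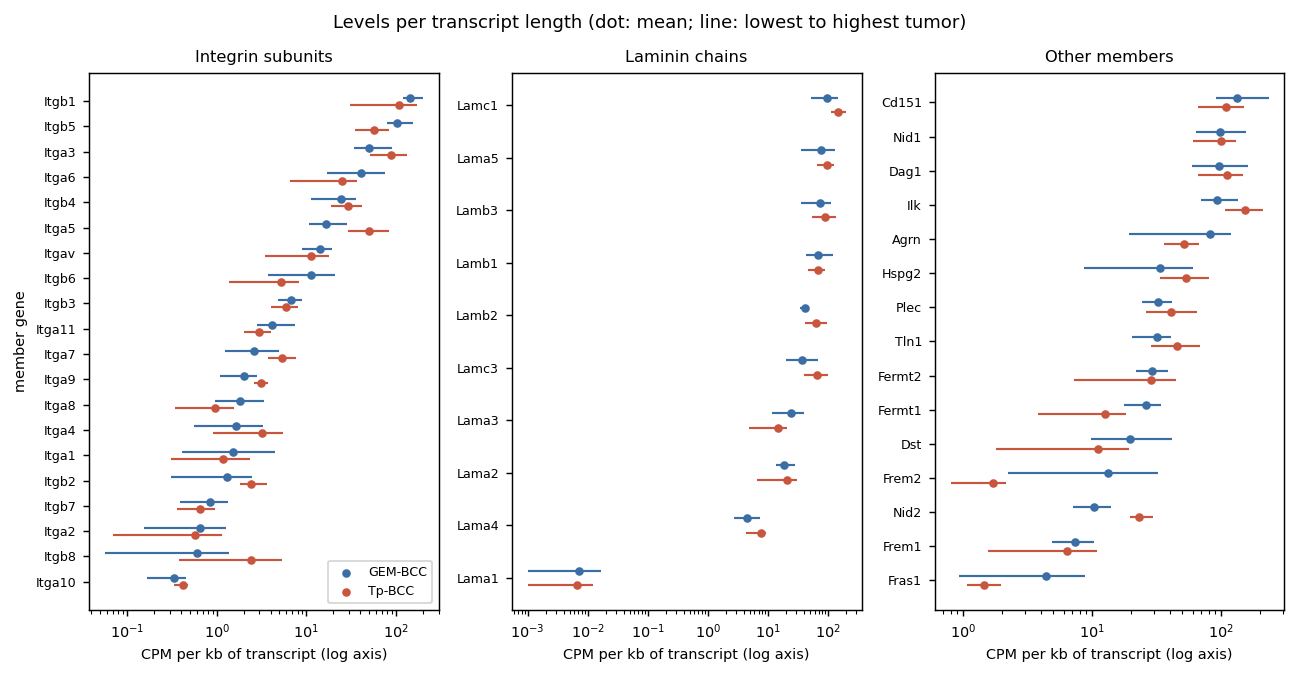
Mean CPM per kb of the longest transcript on a log axis (dots), with lines from the lowest to the highest tumor. All 45 genes are shown in GEM-BCC (blue, 9 tumors) and Tp-BCC (red, 4 tumors), ordered by the GEM-BCC mean. Lama1 stands far below the other laminin chains, and its lines, whose lowest value is 0, start at the axis floor of 0.001.

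Within GEM-BCC the members varied about as much as other genes. Their median SD of log2 CPM over the 9 tumors was 0.48, and that of all tested genes 0.44, from 0.16 for Lamb2 to 1.33 for Itgb8. GEM3 had the lowest value of the 9 tumors for 14 of the 44 members, GEM9 the highest for 15 and GEM1 the highest for 11. No share over all genes is given for these counts, so they are not read as particular to the members. Over all genes, rho with GC content was 0.363 in GEM1 and -0.31 in GEM9. The part of this trend in the counts was not tested. Partner subunits were compared over the 7 GEM-BCC mice, with tumors of 1 mouse averaged and with 2-sided exact permutation tests adjusted over 5 pairs. Lama5 and Lamc1 varied together (Pearson's r = 0.96, exact p = 1.98e-04, the smallest that 7 mice allow, adjusted p = 9.92e-04, Spearman's rho = 1.00, exact p = 3.97e-04, adjusted p = 0.00198). The r was 0.94 without the 2 mice farthest from the median and 0.92 with the GC trend removed (exact p = 0.00278, adjusted p = 0.0139). Itga6 and Itgb4 had r = 0.74 (exact p = 0.0567, adjusted p = 0.142) and rho = 0.79 (exact p = 0.0480, adjusted p = 0.120), and r was 0.95 without the 2 farthest mice. Fras1 and Frem2 had r = 0.70 (exact p = 0.0849, adjusted p = 0.142) and rho = 0.29 (exact p = 0.556, adjusted p = 0.695), and r was 0.36 without the 2 farthest mice. Lama3 and Lamb3 had r = 0.54 (exact p = 0.211, adjusted p = 0.264) and rho = 0.36 (exact p = 0.444, adjusted p = 0.695), and r was 0.24 without the 2 farthest mice. Itgav and Itgb6 had r = 0.03 (exact p = 0.943, adjusted p = 0.943) and rho = 0.14 (exact p = 0.783, adjusted p = 0.783), and r was -0.12 without the 2 farthest mice. The adjusted p was under 0.05 for Lama5 and Lamc1 and for none of the other 4 pairs. Members that are not partners were not compared, so these correlations are not read as particular to partners. All GEM-BCC libraries share 1 batch.

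Within Tp-BCC the members followed the GC content of their transcripts. The tested genes as a whole did so too, with a rho of -0.39 in TP1, -0.472 in TP3, 0.593 in TP2 and 0.589 in TP4. Of the 44 members, 16 were lower in both TP2 and TP4 than in TP1 and TP3, and 23 were higher in both, while 5 were mixed. No share over all genes is given for these counts, so they are not read as particular to the members. The 16 had a GC content of 40.4% to 50.3% (median 47.4%), and the 23 of 49.7% to 61.1% (median 57.0%). The difference in log2 CPM ran from -3.17 for Itga2 to 1.21 for Lamb3. Spearman's rho between this difference and GC content was 0.904 over the 44 genes, which share the same 4 libraries, and 0.625 with the GC trend removed. The rho of this difference over all genes is not given. The median SD of log2 CPM in Tp-BCC fell from 0.66 to 0.27 with the trend removed (0.58 and 0.35 over all genes), and stayed at 0.48 in GEM-BCC. Large differences that remained were those of Dst and Itga2, with an SD of 1.28 and 1.19. For 19 members, a count given without a share over all genes, the pair TP1 and TP3 and the pair TP2 and TP4 gave log2 fold changes of opposite sign against GEM-BCC. Itgb1 had 0.23 with the first pair and -1.71 (adjusted p = 6.83e-04, edgeR) with the second, and Itgav 0.31 and -1.60 (adjusted p = 0.00185). The cause of the split was not tested.

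**Figure D5:**
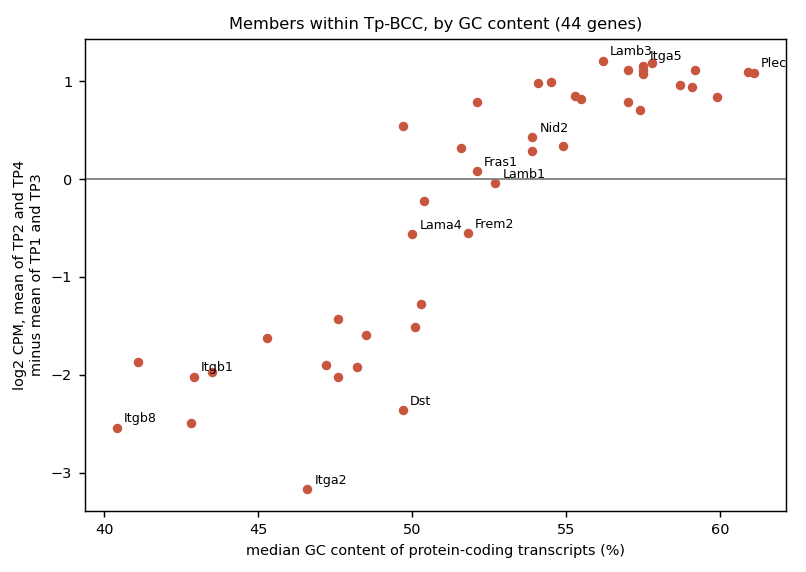
For each of the 44 tested members, the mean log2 CPM of TP2 and TP4 minus that of TP1 and TP3 against the median GC content of its protein-coding transcripts in percent. The points rise from -3.17 (Itga2) to 1.21 (Lamb3) with a Spearman's rho of 0.904, and Frem2 (-0.55), Fras1 (0.08) and Nid2 (0.43) lie near 0.

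Markers of other cell types moved between the models as well. Of all tested genes, 19.4% passed in the same comparison (11.1% higher and 8.35% lower). Of the 12 endothelial markers, 6 were higher and none lower in Tp-BCC (median log2 fold change 1.04), and their sum was 587 to 925 CPM in Tp-BCC against 179 to 412 CPM in GEM-BCC. Pecam1 had a log2 fold change of 0.12 (adjusted p = 0.788, edgeR) and Cdh5 1.29 (adjusted p = 0.00116). Of 10 markers of pericytes and smooth muscle, 2 were higher and none lower, with sums (GEM-BCC first, here and below) of 1097 to 1976 CPM and 1277 to 2404 CPM. Of 10 fibroblast markers, 4 were higher and 2 lower, with sums of 13702 to 50767 CPM and 18260 to 33167 CPM. The 8 adipocyte markers summed to 8.84 to 22.6 CPM in GEM-BCC and to 28.7, 260, 35.3 and 36.9 CPM in TP1 to TP4. Cfd and Cidec among them reached the minimum count in Tp-BCC tumors alone, so that no count of the markers that passed is given. Of the 6 tested markers of skeletal muscle, 1 was higher (Atp2a1). Among the 11 tested leukocyte markers, S100a8 and S100a9 reached the minimum count in GEM-BCC tumors alone, so that their test is not counted. Of the others, Cd68 was higher (log2 fold change 1.31, adjusted p = 0.0292, edgeR) and none was lower. Leukocyte sums were 37.5 to 174 CPM and 108 to 235 CPM, and their part in the values of Itgb2 and Itgb7 was not tested. Of the 6 tested Schwann cell markers, none passed at an adjusted p under 0.05 by edgeR, and Cdh19 was at 0 in all GEM-BCC tumors. Of 7 markers of basal keratinocytes, 1 was lower (Krt15), with sums of 12380 to 19082 CPM and 8829 to 23109 CPM. The part of these cells in the values of Itga5, Lama4 and Nid2, which vessels also express, was not tested.

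The neighboring genes of the pathway were described by the same test, in which 19.4% of all tested genes passed (11.1% higher and 8.35% lower). Of 27 other focal adhesion genes, 5 were higher and 1 lower (22.2%), close to that share. Parvg and Parvb, which encode parvins that bind integrin-linked kinase, had mean values of 8.10 ± 4.87 CPM in GEM-BCC and 68.7 ± 30.0 CPM in Tp-BCC, and of 5.51 ± 2.11 and 22.3 ± 8.22 CPM. Their log2 fold changes were 3.08 (SE 0.41, edgeR, adjusted p = 1.48e-04) and 2.02 (SE 0.32, adjusted p = 6.10e-04). The tensins Tns2 and Tns1, which tie integrin tails to actin, had 1.25 (adjusted p = 9.51e-04, edgeR) and 1.02 (adjusted p = 0.0117). Tns1 was at 0.38 (adjusted p = 0.353, edgeR) with TP1 and TP3 alone, and its adjusted p was 0.0616 without TP2 and 0.0653 without TP4. Of 27 tested further genes of the basement membrane and hemidesmosome, 5 were higher and 3 lower (29.6%). Col17a1, the transmembrane collagen of the hemidesmosome, rose from 197 ± 146 to 787 ± 295 CPM (log2 fold change 2.00, SE 0.50, adjusted p = 0.0120, edgeR) and all Tp-BCC tumors were above all GEM-BCC tumors. Hmcn2 (hemicentin-2) and Tinagl1 rose by a log2 fold change of 3.07 (adjusted p = 2.08e-04, edgeR) and 2.15 (adjusted p = 0.00218). Hmcn2 was near the floor, with 5 to 16 counts in GEM-BCC and 20 to 62 counts in Tp-BCC tumors. Only 4 of the 9 GEM-BCC tumors reached the minimum of 10 counts for it. Ntn4, a netrin that binds laminin, fell by 1.95 on the log2 scale (adjusted p = 0.00767, edgeR). With TP1 and TP3 alone Col17a1, Tinagl1 and Ntn4 did not pass, at 1.45 (adjusted p = 0.158, edgeR), 1.49 (adjusted p = 0.0708) and -1.54 (adjusted p = 0.0749), while Hmcn2 did, at 2.74 (adjusted p = 0.00457). Of 16 tested matrix ligands outside the basement membrane, 2 were higher and 2 lower (25.0%). Fn1 (fibronectin), the ligand of the Itga5 integrin, rose from 163 ± 47.6 to 1466 ± 463 CPM (log2 fold change 3.17, SE 0.26, adjusted p = 1.32e-06, edgeR), and Ecm1 by a log2 fold change of 2.04 (adjusted p = 2.08e-04). Tnc (tenascin-C) fell from 579 ± 476 to 17.3 ± 1.71 CPM (log2 fold change -5.06, SE 0.82, adjusted p = 7.00e-04, edgeR) and Thbs1 (thrombospondin-1) from 156 ± 63.6 to 35.9 ± 10.3 CPM (-2.12, adjusted p = 9.51e-04). Of 6 tested integrin-related genes outside the list, 1 passed (16.7%), and the 5 that encode integrin chains of leukocytes or platelets did not. The one that passed, Itgbl1, is related to beta subunits and was lower (-1.45, adjusted p = 0.0441, edgeR). Itgbl1 was at -0.74 (adjusted p = 0.290, edgeR) with TP1 and TP3 alone, and its adjusted p was 0.0514 with counts summed per mouse and reached up to 0.133 without any 1 of GEM2, GEM3, GEM5, GEM6, GEM7, GEM9, TP2 or TP4. With the GC trend removed all 13 genes named here kept an adjusted p under 0.05.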

How the data were processed

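The authors trimmed reads with SOAPnuke, mapped them to GRCm39 transcripts with Bowtie2 2.3.4.3 and quantified them with RSEM 1.3.1 in its strand-specific mode, and the expected counts per gene were deposited without normalization. Values can be fractional, since reads matching several genes are split. Counts were rounded in R 4.3.3. Of 21100 genes, 16687 have a value in all 13 tumors, and 14390 of these reached the minimum of 10 counts in 4 or more tumors and entered edgeR 4.0.16 (TMM, robust quasi-likelihood F test, 2-sided, no covariate, Benjamini-Hochberg over all tested genes). The SE is the size of the log2 fold change divided by the square root of F, and log2 CPM used a prior count of 2. GC content and the length used for the length trend are medians of protein-coding transcripts in GENCODE vM21 (99.2% of tested genes matched). Their trends (lowess, span 0.3) were removed by offsets. Values per kb were divided by the length of the longest protein-coding transcript instead. Alternatives were other scaling, filters and dispersions, a block for tumor number, DESeq2 1.42.0, sums per mouse, leaving out each tumor, and, added after the data were seen, each pair of Tp-BCC tumors alone. Genes described in full are members at an adjusted p under 0.05 and the 2 best expressed of each role, and up to 4 genes of each neighboring list. The members and all lists were chosen with earlier results of these data known. P-values treat the 9 GEM-BCC tumors as separate, although 2 pairs share a mouse.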

Additional observations from a re-analysis of the deposited data

Results flagged for a closer look

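Of 88 groups of tumors tested (44 members in each model), 4 had a tumor whose gap to its nearest neighbor was a larger part of the group's range than Dixon's 95% limit, where chance gives about 1 in 20. The gaps, ranges and ratios are in log2 CPM, while the values of the tumors are printed in CPM. The ratios therefore do not follow from the CPM beside them, and the limit was not applied to CPM. TP4 was the low tumor for Lama4 in Tp-BCC, with 26.6 CPM against 51.8 to 55.7 CPM in the other 3 (ratio of gap to range 0.901). TP4 was also the low tumor for Frem2 in Tp-BCC, with 9.85 CPM against 23.0 to 26.7 CPM (ratio 0.853). GEM3 was the low tumor for Agrn in GEM-BCC, with 139 CPM against 439 to 857 CPM (ratio 0.632), and for Tln1, with 172 CPM against 249 to 343 CPM (ratio 0.533). GEM3 had the lowest value of the GEM-BCC tumors for 14 of the 44 members, a count given without a share over all genes. Without GEM3 Agrn passed the threshold, at a log2 fold change of -0.85 (adjusted p = 0.0249, edgeR), against -0.67 (adjusted p = 0.202) with all tumors, while Tln1 was at 0.38 (adjusted p = 0.229). Without TP4 Lama4 was at 0.92 (adjusted p = 0.0262, edgeR) and Frem2 at -2.76 (adjusted p = 0.0208).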

How the results depend on the processing

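The comparison rests on 4 Tp-BCC tumors of 1 line, a batch that equals the model, and Tp-BCC libraries that are shallower and part by GC content. Over single tumors left out, the members higher in Tp-BCC numbered 2 to 7, those lower 2 to 5 and those called 1 to 2. The median log2 fold change kept its sign in all settings but the removal of the GC trend (-0.06). Members called numbered 2 with total counts in place of TMM, with counts summed per mouse and with the length trend removed. Members lower numbered 2 with counts summed per mouse (Frem2 and Fras1), and with the length trend removed 12 were higher and 2 lower. With TP1 and TP3 alone 1 was lower, and with TP2 and TP4 alone 12 were lower and 5 called. In either direction, 11.4% of the members passed with the first pair and 47.7% with the second. No share over all genes is given for these settings, so the counts are not read as results about the members. With the tumor number as a replicate block none was higher and 1 was lower and called (Frem2, -2.99, adjusted p = 0.0272, edgeR). Same-numbered tumors of the models come from different mice, and their deviations had correlations of -0.38 to -0.10, so the numbers do not pair them. The r of Itga6 and Itgb4 was 0.95 without the 2 farthest mice, and that of Itgav and Itgb6 -0.12, and -0.35 with the GC trend removed. Of 1100 fold changes of members under these settings, 58 changed sign, and the adjusted p of 80 went above and that of 34 below 0.05. No member past that threshold in the comparison of all tumors changed sign. With the GC trend removed the sign changed for Itgb4 (-0.10), Lama5 (-0.03), Lamb3 (-0.09), Plec (-0.05), Dag1 (-0.03) and Fermt2 (0.09). With the length trend removed it changed for Itgb3 (0.22), Lamb1 (0.27) and Fermt2 (0.01), with counts summed per mouse for Fermt2 (0.01), and with total counts for Nid1 (-0.01) and Fermt2 (0.00). With TP1 and TP3 alone it changed for Itga1 (0.41), Itga2 (0.64), Itgav (0.31), Itgb1 (0.23), Itgb4 (-0.29), Lama5 (-0.16), Lamb3 (-0.48), Plec (-0.33), Dag1 (-0.38), Frem1 (0.43), Fermt2 (0.60) and Tln1 (-0.15). With TP2 and TP4 alone it changed for Itga4 (-0.20), Itgb3 (0.17), Itgb7 (0.10), Lama2 (-0.57), Lamb1 (0.01), Nid1 (-0.02) and Cd151 (0.13), and with the replicate block for Itga1 (0.09), Itga2 (0.36), Lamb1 (0.18) and Lamb3 (-0.22). Over single tumors left out the ranges that crossed 0 were -0.94 to 0.04 for Itga1, -0.78 to 0.15 for Itga2, -0.03 to 0.42 for Itgb4, -0.05 to 0.45 for Lama2, -0.20 to 0.14 for Lamb1, -0.08 to 0.44 for Lamb3, -0.15 to 0.17 for Nid1, -0.03 to 0.50 for Plec, -0.04 to 0.38 for Dag1, -0.62 to 0.08 for Frem1 and -0.33 to 0.27 for Fermt2. The cause of these changes was not tested.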

Other observations

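Over the 44 tested members, GEM2 and GEM3 of 1 mouse differed by a median of 0.52 in absolute log2 CPM, and GEM7 and GEM8 of 1 mouse by 0.56. The 34 pairs of GEM-BCC tumors from different mice differed by 0.21 to 0.72, with a median of 0.50. Tumors of 1 mouse were thus not closer to each other in these genes than tumors of different mice, as a description over 2 such pairs.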
